A study of Rattus norvegicus with 16 samples.

Results

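The genes described here are 10 genes of renal acid-base handling: the bicarbonate transporters Slc4a1, Slc4a4 and Slc26a4, the proton pump genes Atp6v1b1, Atp6v0a4 and Atp12a, and the carbonic anhydrases Car2, Car4, Car12 and Car15. They were chosen by name from the 35849 genes of the deposited table, and 8 stood there under these names. The other 2, Car4 and Car12, are listed in the table as Ca4 and Ca12 and were matched through the synonyms of the RefSeq gene table. All 10 passed the filter on low counts in every comparison.

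RNA was sequenced from the kidney of 16 male Sprague Dawley rats, with 4 rats per group (normal, DN, and SIN at either 20 or 40 mg/kg), to ask how sinomenine (SIN), an alkaloid, acts in diabetic nephropathy (DN). The rats entered the study at 6 to 8 weeks of age and 200 ± 20 g. Rats of the DN group and of both SIN groups shared a streptozotocin injection of 45 mg/kg, a blood glucose above 16.7 mmol/L at selection and a diet rich in glucose and fat. Rats of the normal group received citrate buffer and normal diet, so that any difference from normal held the toxin, the glucose and the diet together. SIN was given daily by gavage for 8 weeks in both SIN groups, and the DN group received vehicle.

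The kidney keeps blood pH steady in separate segments. The proximal tubule reclaims filtered bicarbonate, which carbonic anhydrases turn into carbon dioxide and back and which leaves across the basolateral membrane through Slc4a4. In the collecting duct, type A intercalated cells secrete acid with a vacuolar proton pump (V-ATPase) and return bicarbonate to the blood through Slc4a1, while type B and non-A, non-B intercalated cells secrete bicarbonate through Slc26a4 (pendrin).

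Promoters are shown for intercalated cell genes Atp6v1b1 and Slc26a4, lower than normal in all 3 diabetic groups, and for Car4, higher in both SIN groups. They are 300 bases of the RefSeq assembly GRCr8 around the gene start, read 5′ to 3′ on the gene's strand, with capitals for a match to TGTTTAC, the core that forkhead factors such as Foxi1 bind, or to TATAAA, the TATA box. The expression table was made on the older assembly Rnor_6.0, and no coordinates were carried between them.
Atp6v1b1 promoter, chr4:117781194-117781493, plus strand: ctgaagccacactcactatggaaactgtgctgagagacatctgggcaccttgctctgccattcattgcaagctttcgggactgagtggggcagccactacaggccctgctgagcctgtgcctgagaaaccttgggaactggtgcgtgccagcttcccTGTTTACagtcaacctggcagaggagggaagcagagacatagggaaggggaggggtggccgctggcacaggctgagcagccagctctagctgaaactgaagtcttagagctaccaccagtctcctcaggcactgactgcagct
Slc26a4 promoter, chr6:53873167-53873466, minus strand: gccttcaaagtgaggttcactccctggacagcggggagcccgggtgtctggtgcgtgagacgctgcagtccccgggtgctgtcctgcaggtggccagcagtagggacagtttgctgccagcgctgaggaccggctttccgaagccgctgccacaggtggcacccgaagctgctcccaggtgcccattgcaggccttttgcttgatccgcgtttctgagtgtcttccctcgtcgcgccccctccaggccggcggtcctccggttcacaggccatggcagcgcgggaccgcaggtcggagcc
Car4 promoter, chr10:70325108-70325407, plus strand: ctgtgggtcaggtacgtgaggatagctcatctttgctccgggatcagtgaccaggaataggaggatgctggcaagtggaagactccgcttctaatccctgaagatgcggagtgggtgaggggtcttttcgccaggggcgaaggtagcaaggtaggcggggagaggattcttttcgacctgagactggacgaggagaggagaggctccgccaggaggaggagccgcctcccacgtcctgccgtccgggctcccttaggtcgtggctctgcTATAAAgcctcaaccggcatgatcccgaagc

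Each motif was searched on both strands in the 9 promoters listed for 8 of the genes. TGTTTAC stood in 1 of them, that of Atp6v1b1, where it began 93 bases before the start, and in 3.78% of all 33469 promoters of the table. TATAAA stood in 1, that of Car4, where it began 19 bases after the listed start, and in 14.2% of all promoters. The E-box CACGTG stood in none of the 9 and in 6.42% of all promoters. These matches describe letters only, and binding was not measured.

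Library totals ran from 19616312 to 25217030 estimated counts. Summed markers of the proximal tubule (8 genes) lay between 7448 and 13580 CPM (counts scaled to the library's total) and those of the thick ascending limb (4 genes) between 2087 and 4840 CPM, so the defining markers of kidney tubules were present. DN rat 3 stood apart, with 704.9 CPM summed over 6 fibroblast and smooth muscle genes against 174 to 318 CPM in the other 15 rats, and 121.9 CPM over 7 genes of urothelium and renal pelvis against 1.87 to 65.0 CPM. Its part in the results was not tested, and the calls in DN over normal are given with and without it. Serial numbers of the libraries ran consecutively within groups, so that a batch of libraries and a group cannot be told apart. P-values measure the spread between rats only.

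Of the 10 genes, 4 differed between DN and normal kidney (edgeR's quasi-likelihood test, adjusted p under 0.05, 2-sided), against 19.5% of all genes tested. Slc4a4, Slc26a4 and Atp6v1b1 fell in DN, against 10.8% of all genes that fell. Car15 rose, against 8.74% of all genes that rose. None of the 4 changed by a log2 fold change of 1 or more, which 3.8% of all genes did. At an unadjusted p under 0.05 there were 6, against 36.9% of all genes, the other 2 being Car4 and Atp12a. DESeq2 also called these 2, which made 6, against 26.4% of all genes, and edgeR's exact test called 5, with Atp12a and without Car4, against 21.5%.

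In SIN (20 mg/kg) over normal, 4 of the 10 genes differed, against 6.36% of all genes. Slc26a4, Atp6v1b1 and Atp12a fell, against 3.58% that fell, and Car4 rose, against 2.77% that rose. In SIN (40 mg/kg) over normal the same 4 genes differed in the same directions, against 5.97% of all genes, with 3.69% that fell and 2.28% that rose. Atp12a alone also passed a log2 fold change of 1 in each of these comparisons, which 2.48% of all genes did for SIN (20 mg/kg) and 2.47% for SIN (40 mg/kg). All 3 comparisons with normal share the same 4 normal rats.

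In SIN over DN the quasi-likelihood test of edgeR called 0 of the 10 genes at either dose. It called 0.0% of all genes in SIN (20 mg/kg) over DN and likewise 0.0% in SIN (40 mg/kg) over DN. At an unadjusted p under 0.05 there were 3 of the 10 genes in SIN (20 mg/kg) over DN (Slc4a4, Car4 and Car15), against 15.4% of all genes. In SIN (40 mg/kg) over DN there were 4 (the same 3 and Atp12a), against 17.1%. DESeq2 called 1 gene in SIN (20 mg/kg) over DN, Car15, against 1.4% of all genes, and edgeR's exact test called the same 1, against 0.566%. In SIN (40 mg/kg) over DN, DESeq2 called 4, Slc4a4, Atp12a, Car4 and Car15, against 2.73% of all genes, and the exact test called 1, Car15, against 1.04%. These comparisons share the 4 DN rats with each other and with DN over normal.

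Between the doses the quasi-likelihood test of edgeR called 0 of the 10 genes, and it called 0.00639% of all genes. At an unadjusted p under 0.05 there were 2, against 4.98% of all genes, Atp12a (log2 fold change -1.25) and Car12 (0.25), both with an adjusted p of 0.961. DESeq2 called 0 of the 10, against 0.109% of all genes, and the exact test 0, against 0.0383%. In Car12 all 4 SIN (40 mg/kg) rats lay above all 4 SIN (20 mg/kg) rats.

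**Figure D1:**
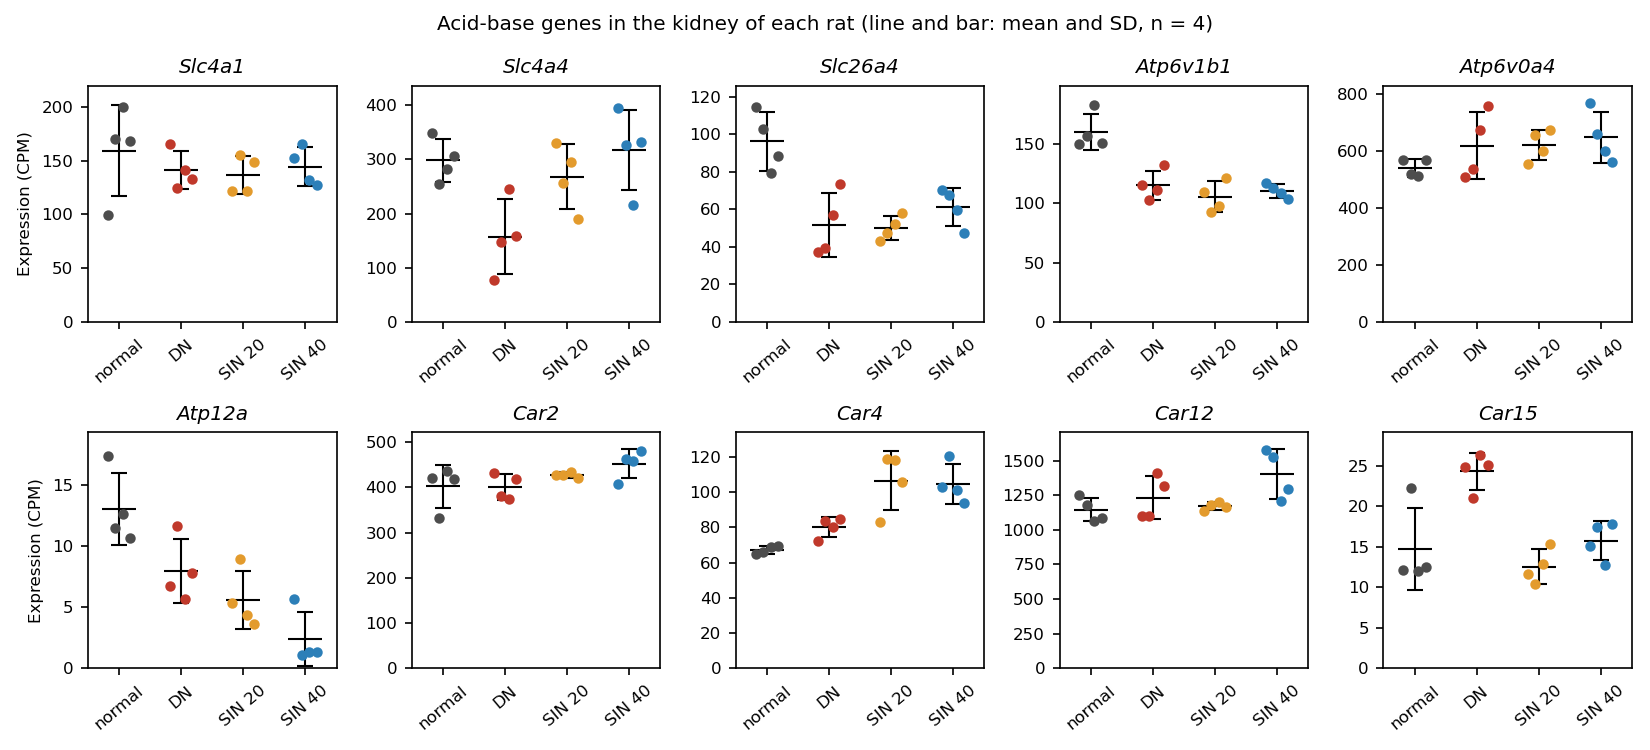
Expression in CPM (y axis, from 0) of the 10 genes in each rat by group (normal, DN and SIN at 20 or 40 mg/kg, x axis), with 1 point per rat and the mean with SD (n = 4). Slc26a4 and Atp6v1b1 sat below every normal rat in all 12 other rats, the mean of Slc4a4 was lowest and that of Car15 highest in DN, and Car4 had its highest means in the SIN groups.

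Per transcript length, Car12 was the most abundant of the 10 genes in normal kidney at 683 ± 23.5 TPM (counts scaled by gene length and library, mean ± SD, n = 4 here and below). Car2 followed at 379 ± 51.0 TPM and Atp6v0a4 at 279.5 ± 15.0 TPM, and the ranges of these 3 did not overlap. Slc4a4 stood at 103 ± 11.8 TPM and Car4 at 79.8 ± 5.70 TPM, with ranges that did not overlap. Atp6v1b1 (55.5 ± 7.31 TPM), Slc4a1 (55.3 ± 16.4 TPM) and Slc26a4 (45.8 ± 5.56 TPM) overlapped. Car15 came next at 13.0 ± 4.31 TPM, and Atp12a was lowest at 4.99 ± 0.981 TPM. In DN, Car4 at 89.3 ± 6.39 TPM lay above Slc4a4 at 50.9 ± 22.7 TPM with no overlap, the reverse of the order in normal kidney.

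Slc4a4, the sodium bicarbonate cotransporter of the proximal tubule, was expressed at 348.8, 255.5, 283 and 306 CPM in the 4 normal rats. In the DN rats it was at 77.5, 147, 246 and 159 CPM. All DN rats lay below all normal rats, with DN rat 1 far down and DN rat 3 just under the lowest normal rat. Its log2 fold change was -0.92 (SE 0.285, 95% interval -1.55 to -0.28, adjusted p = 0.0489, edgeR quasi-likelihood test). Without DN rat 3 it was -1.22 (adjusted p = 0.0195 by edgeR), and this was the only 1 of the 8 fits without 1 rat that kept the call. In the 7 others the adjusted p by edgeR ran from 0.0515 to 0.111.

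Slc4a4 stood at 330.1, 256, 296 and 190.1 CPM in the SIN (20 mg/kg) rats and at 395, 327, 217 and 332 CPM in the SIN (40 mg/kg) rats. In each SIN group 3 of the 4 rats lay above every DN rat. The log2 fold change over DN was 0.76 (SE 0.304, adjusted p = 0.303, edgeR quasi-likelihood test) for SIN (20 mg/kg) and 1.01 (SE 0.308, adjusted p = 0.200) for SIN (40 mg/kg), so neither passed that test. DESeq2 gave an adjusted p of 0.0342 for SIN (40 mg/kg) over DN. Over normal the log2 fold change was -0.16 (95% interval -0.53 to 0.22) for SIN (20 mg/kg) and 0.09 (95% interval -0.30 to 0.47) for SIN (40 mg/kg), and both SIN groups overlapped the normal group.

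Slc26a4, the chloride bicarbonate exchanger pendrin, was expressed at 114.5, 102.5, 79.3 and 88.3 CPM in the normal rats. It was at 37.2, 39.2, 56.8 and 73.4 CPM in the DN rats. No DN rat reached a normal rat, though DN rat 4 came near normal rat 3. In DN over normal the log2 fold change was -0.89 (SE 0.219, 95% interval -1.38 to -0.40, adjusted p = 0.0249, edgeR quasi-likelihood test), and -0.94 without DN rat 3 (adjusted p = 0.0389 by edgeR). The call was kept in 4 of the 8 fits without 1 rat. It was lost without normal rat 1 (adjusted p = 0.0602 by edgeR), normal rat 4 (0.0593), DN rat 1 (0.0528) or DN rat 2 (0.0629).

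In the SIN (20 mg/kg) rats Slc26a4 was at 42.8, 47.5, 52.2 and 57.9 CPM, and in the SIN (40 mg/kg) rats it was at 70.01, 67.8, 59.4 and 47.6 CPM. Every SIN rat lay below every normal rat and both SIN groups overlapped DN. Over normal Slc26a4 fell by 0.94 on the log2 scale in SIN (20 mg/kg) (SE 0.137, adjusted p = 0.00406 by edgeR), a call kept in 8 of 8 fits without 1 rat. In SIN (40 mg/kg) it fell by 0.66 (SE 0.151, adjusted p = 0.0325 by edgeR), a call kept in 3 of 8. The adjusted p of the 5 other fits ran from 0.0590 to 0.0927 by edgeR, without normal rat 1, 2 or 4 or SIN (40 mg/kg) rat 2 or 3. Over DN the log2 fold change of Slc26a4 was -0.05 (95% interval -0.52 to 0.42) for SIN (20 mg/kg) and 0.24 (95% interval -0.24 to 0.73) for SIN (40 mg/kg).

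Slc4a1, the chloride bicarbonate exchanger of type A intercalated cells and of red blood cells, was expressed at 99.3, 169.9, 199.5 and 169 CPM in the normal rats and at 165, 124, 142 and 133 CPM in the DN rats. The groups overlapped and normal rat 1 was the lowest of all 16 rats. The log2 fold change was -0.17 (95% interval -0.60 to 0.26, adjusted p = 0.545, edgeR quasi-likelihood test). Slc4a1 lay between 121.5 and 165.7 CPM in the 8 SIN rats, within the range of the normal group. Summed red blood cell genes (6 of 10 listed genes were in the table) ranged from 212 to 1171 CPM over the 16 rats and overlapped between all groups.

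Atp6v1b1 encodes the B1 subunit of the V-ATPase, the form found in intercalated cells, and was expressed at 150.3, 156.5, 183 and 150.7 CPM in the normal rats. In the DN rats it was at 115, 103, 111.5 and 132 CPM. Every DN rat was below every normal rat. This was a log2 fold change of -0.47 (SE 0.109, 95% interval -0.71 to -0.23, adjusted p = 0.0210, edgeR quasi-likelihood test), and -0.45 without DN rat 3 (adjusted p = 0.0432 by edgeR). The call was lost without normal rat 3 (adjusted p = 0.0603 by edgeR), normal rat 4 (0.0527) or DN rat 2 (0.0596) and was kept in the 5 other fits without 1 rat.

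Atp6v1b1 was at 109.8, 92.6, 97.4 and 122 CPM in the SIN (20 mg/kg) rats and at 117, 113, 109 and 103 CPM in the SIN (40 mg/kg) rats. All 8 SIN rats were below all normal rats and both SIN groups overlapped DN. It fell by 0.60 on the log2 scale in SIN (20 mg/kg) over normal (SE 0.110, adjusted p = 0.0112 by edgeR) and by 0.54 in SIN (40 mg/kg) over normal (SE 0.0918, adjusted p = 0.00852 by edgeR), and both calls were kept in 8 of 8 fits without 1 rat. Over DN the log2 fold change was -0.14 (95% interval -0.40 to 0.13) in SIN (20 mg/kg) and -0.06 (95% interval -0.27 to 0.15) in SIN (40 mg/kg). The B1 subunit made up 13.4% to 21.3% of B1 plus B2 (Atp6v1b2, the widespread form) in TPM in the normal rats, 12.5% to 14.9% in DN, 11.6% to 15.9% in SIN (20 mg/kg) and 10.96% to 13.6% in SIN (40 mg/kg). These shares overlapped between normal and every other group and were not tested.

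Atp6v0a4, the a4 subunit of the V-ATPase, was expressed at 567, 518, 511 and 569.8 CPM in the normal rats and at 507, 537, 673.5 and 758.8 CPM in the DN rats. The groups overlapped, with DN rats 3 and 4 above every normal rat and DN rat 1 below. The log2 fold change was 0.20 (95% interval -0.11 to 0.51, adjusted p = 0.324, edgeR quasi-likelihood test). In the SIN rats it lay between 555.7 and 768 CPM, with no call over normal or over DN. Atp6v0a4 and Atp6v1b1 thus had values on opposite sides of 0 in DN over normal, with intervals that did not overlap. The difference between the genes was not tested. In normal kidney Atp6v0a4 averaged 279.5 TPM and Atp6v1b1 55.52 TPM. Within groups the correlation with the proximal tubule sum was 0.75 for Atp6v0a4, -0.17 for Atp6v1b1 and 0.75 for Slc26a4. With the podocyte sum it was 0.77 for Atp6v0a4 and 0.57 for Atp6v1b1. With the distal convoluted tubule sum these 2 had 0.71 and 0.43, and with the thick ascending limb sum -0.86 and -0.36. Whole tissue does not show whether RNA of Atp6v0a4 and Atp6v1b1 came from the same cells.

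Atp12a, the colonic-type proton potassium pump, was the scarcest of the 10 genes, with 24 to 373 estimated counts per rat. It was at 17.4, 11.5, 12.6 and 10.7 CPM in the normal rats and at 6.77, 11.7, 5.68 and 7.86 CPM in the DN rats. All DN rats except rat 2 lay below the normal rats, and the log2 fold change of -0.71 (SE 0.239) did not pass the test (adjusted p = 0.0638, edgeR quasi-likelihood test). DESeq2 (adjusted p = 0.0297) and edgeR's exact test (adjusted p = 0.0431) called it, and without DN rat 2 the quasi-likelihood test gave -0.94 (adjusted p = 0.0390 by edgeR).

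In SIN (20 mg/kg) Atp12a was at 5.38, 8.99, 4.40 and 3.67 CPM, and in SIN (40 mg/kg) it was at 5.70, 1.12, 1.35 and 1.36 CPM. All 8 rats were below all normal rats, and SIN (40 mg/kg) rats 2, 3 and 4 were lower than any other rat of the study while rat 1 was not. Atp12a fell by 1.22 on the log2 scale in SIN (20 mg/kg) over normal (SE 0.279, adjusted p = 0.0303 by edgeR), a call kept in 2 of 8 fits without 1 rat and with an adjusted p of up to 0.0891 in the 6 others. These 2 were the fits without normal rat 2 or SIN (20 mg/kg) rat 2. It fell by 2.46 on the log2 scale in SIN (40 mg/kg) over normal (SE 0.486, adjusted p = 0.0165 by edgeR), a call lost without SIN (40 mg/kg) rat 2 (0.0516) or rat 3 (0.0539). Over DN the log2 fold change in SIN (40 mg/kg) was -1.75 (SE 0.511, adjusted p = 0.200, edgeR quasi-likelihood test, 0.0212 by DESeq2).

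Car2, the abundant cytosolic carbonic anhydrase of proximal tubule and intercalated cells, was at 421, 333, 435 and 418 CPM in the normal rats and at 432, 381, 373.5 and 419 CPM in the DN rats. The groups overlapped, and the log2 fold change was 0.00 (95% interval -0.25 to 0.25, adjusted p = 0.989, edgeR quasi-likelihood test). In the SIN rats Car2 lay between 407 and 481 CPM, with no call in any comparison.

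Car12, a membrane-bound carbonic anhydrase, was at 1249, 1180, 1066 and 1088 CPM in the normal rats and at 1102, 1099, 1407 and 1318 CPM in the DN rats. The groups overlapped, with a log2 fold change of 0.11 (95% interval -0.16 to 0.38, adjusted p = 0.538, edgeR quasi-likelihood test). It was at 1137, 1176, 1204 and 1168 CPM in the SIN (20 mg/kg) rats and at 1577, 1525, 1206 and 1298 CPM in the SIN (40 mg/kg) rats. The SIN (40 mg/kg) rats lay partly above the normal rats, with a log2 fold change of 0.29 (adjusted p = 0.180 by edgeR).

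Car4, the carbonic anhydrase anchored on the surface of proximal tubule cells, was at 64.9, 66.0, 68.9 and 69.4 CPM in the normal rats. In the DN rats it was at 72.3, 83.7, 80.1 and 84.7 CPM. The groups did not overlap and the normal rats were close to each other. The log2 fold change in DN over normal was 0.26 (SE 0.0810, 95% interval 0.08 to 0.44) and the adjusted p was 0.0508 in the quasi-likelihood test of edgeR, just outside the threshold. DESeq2 (0.0162) and the quasi-likelihood test under RLE scaling (0.0457 by edgeR) called it, and so did the fit without DN rat 1 (0.0431 by edgeR).

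Car4 was at 83.0, 119, 118 and 105.9 CPM in the SIN (20 mg/kg) rats and at 103, 120.5, 101 and 93.6 CPM in the SIN (40 mg/kg) rats. Every SIN rat was above every normal rat, and all but SIN (20 mg/kg) rat 1 were above every DN rat. Car4 rose by 0.66 on the log2 scale in SIN (20 mg/kg) over normal (SE 0.114, adjusted p = 0.00886 by edgeR) and by 0.63 in SIN (40 mg/kg) over normal (SE 0.0919, adjusted p = 0.00413 by edgeR), each kept in 8 of 8 fits without 1 rat. Over DN the log2 fold change was 0.40 (SE 0.123, adjusted p = 0.270, edgeR quasi-likelihood test) in SIN (20 mg/kg) and 0.38 (SE 0.0984, adjusted p = 0.187) in SIN (40 mg/kg), and only DESeq2 called the latter (0.0435).

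Car15, a carbonic anhydrase anchored to the membrane like Car4, was at 12.1, 22.3, 11.98 and 12.5 CPM in the normal rats. It was at 24.8, 21.1, 26.4 and 25.1 CPM in the DN rats. The groups overlapped only through normal rat 2, which lay above DN rat 2. Car15 rose by 0.73 on the log2 scale (SE 0.205, 95% interval 0.27 to 1.19, adjusted p = 0.0355, edgeR quasi-likelihood test). Without normal rat 2 it was 0.99 (adjusted p = 0.00462 by edgeR), and in the 7 other fits without 1 rat the call was lost, with an adjusted p from 0.0578 to 0.104. Without DN rat 3 it was 0.69 (adjusted p = 0.0698 by edgeR).

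Car15 was at 11.7, 10.4, 12.9 and 15.4 CPM in the SIN (20 mg/kg) rats and at 15.1, 17.4, 12.7 and 17.9 CPM in the SIN (40 mg/kg) rats. All 8 SIN rats were below all 4 DN rats. The log2 fold change over DN was -0.96 (SE 0.142, 95% interval -1.28 to -0.64) in SIN (20 mg/kg), and the adjusted p was 0.141 in the quasi-likelihood test of edgeR, 2.07e-06 by DESeq2 and 8.56e-05 by edgeR's exact test. In SIN (40 mg/kg) it was -0.62 (SE 0.135, 95% interval -0.92 to -0.32), with an adjusted p of 0.175 by the quasi-likelihood test, 0.00494 by DESeq2 and 0.0284 by the exact test. Over normal it was -0.23 (95% interval -0.72 to 0.26) in SIN (20 mg/kg) and 0.10 (95% interval -0.38 to 0.57) in SIN (40 mg/kg), and both SIN groups overlapped the normal group.

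**Figure D2:**
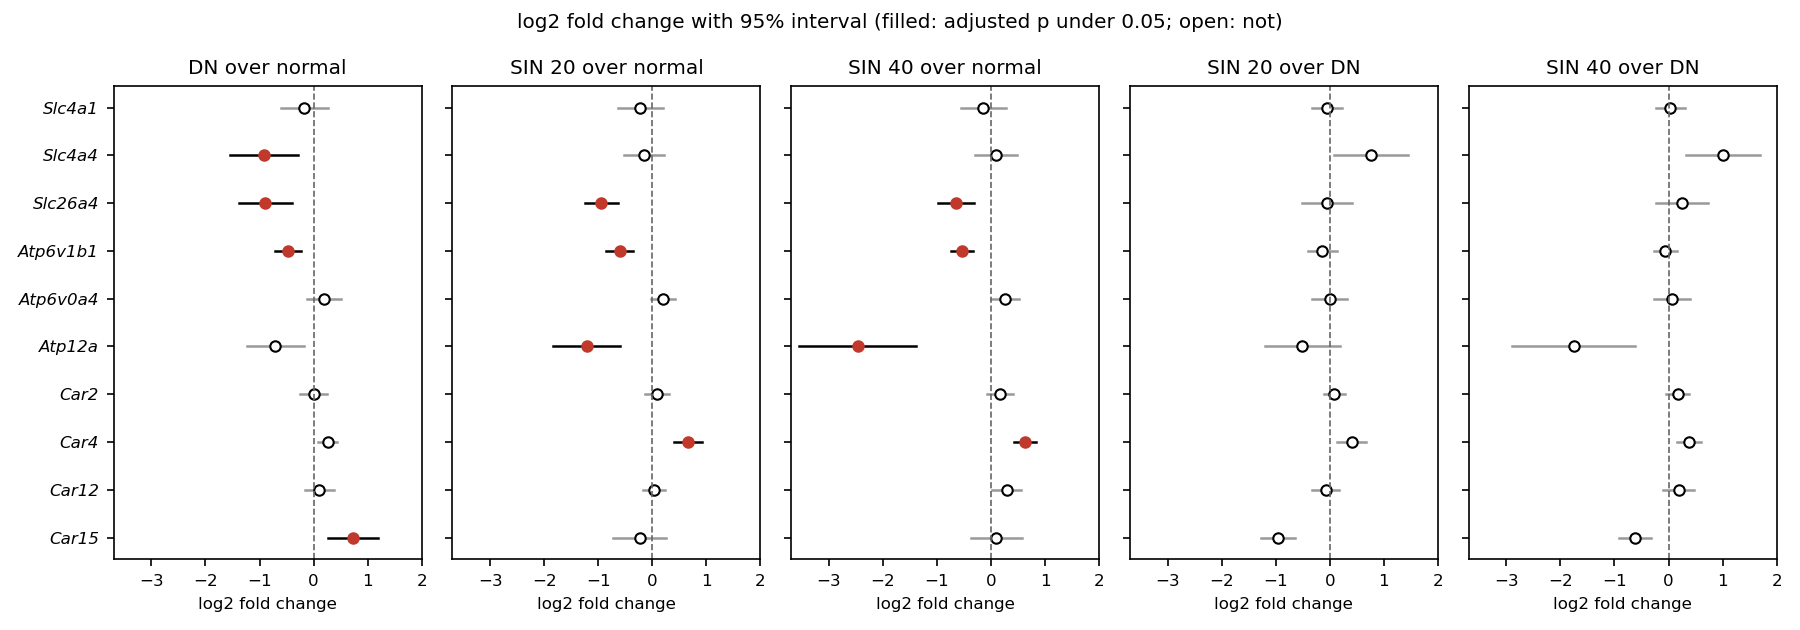
Log2 fold change (x axis) with its 95% interval for the 10 genes (y axis) in 5 comparisons, filled where edgeR's quasi-likelihood test gave an adjusted p under 0.05. Slc26a4 and Atp6v1b1 are filled to the left of 0 in all 3 comparisons with normal, Car4 is filled to the right of 0 in both SIN groups, and no point is filled in the 2 comparisons with DN.

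Intercalated cell markers other than the 10 genes were read from a list of 12, all of them tested. In DN over normal 3 fell and none rose, where 10.8% of all genes fell and 8.74% rose, with a median log2 fold change of -0.20 against 0.00 over all genes. All 3 kept the call without DN rat 3 (adjusted p from 0.0131 to 0.0430 by edgeR). Tfcp2l1, a transcription factor of collecting duct cells, was at 532, 391, 421.5 and 419 CPM in the normal rats and at 249.7, 252, 239 and 255 CPM in the DN rats, with no overlap (log2 fold change -0.82, SE 0.112, adjusted p = 0.00421 by edgeR). The other 2 were Atp6v0d2, the d2 subunit of the V-ATPase (log2 fold change -0.95, adjusted p = 0.0229 by edgeR), and Oxgr1, the oxoglutarate receptor of type B cells (-0.83, adjusted p = 0.0227). Foxi1, the forkhead factor that defines intercalated cells, was at 32.6 to 44.4 CPM in the normal and 33.3 to 46.7 CPM in the DN rats, with a log2 fold change of 0.09 (adjusted p = 0.706 by edgeR).

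The summed level of the 12 markers lay between 823 and 901 CPM in the normal rats, 613 and 781 CPM in DN, 588 and 758 CPM in SIN (20 mg/kg) and 654 and 778 CPM in SIN (40 mg/kg), so the normal group stood above the rest. Without Tfcp2l1, the most abundant of them, the sums were 368 to 483 CPM in normal, 363 to 532 CPM in DN, 310 to 464 CPM in SIN (20 mg/kg) and 369 to 469 CPM in SIN (40 mg/kg), and the groups overlapped. In whole tissue, fewer intercalated cells and less RNA of these genes per cell cannot be told apart. In SIN (20 mg/kg) over normal 3 of the 12 markers fell (Hmx2, Oxgr1 and Tfcp2l1), against 3.58% of all genes, and in SIN (40 mg/kg) over normal 1 did (Tfcp2l1), against 3.69%.

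Among 20 other V-ATPase subunit genes, 2 rose and 3 fell in DN over normal, where 8.74% of all genes rose and 10.8% fell, with a median log2 fold change of 0.10. Atp6v0e2, a membrane sector subunit, rose by 0.45 on the log2 scale (adjusted p = 0.0164 by edgeR) and Atp6v1a, the catalytic A subunit, fell by 0.45 (adjusted p = 0.0131). Atp6v0d2, named above, stands in both lists, and Atp6ap2, an accessory subunit also known as the prorenin receptor, fell by 0.28 (adjusted p = 0.0401 by edgeR). Of these 5 calls 3 were kept without DN rat 3, and those of Atp6ap2 (adjusted p = 0.0630 by edgeR) and of the second riser Atp6v0a1, an a subunit (0.0626), were lost. Atp6v0a1 had risen by 0.36 on the log2 scale with all rats (adjusted p = 0.0439 by edgeR) and is named for that loss. In both SIN groups over normal 0 of the 20 passed the quasi-likelihood test, with 4 for SIN (20 mg/kg) and 1 for SIN (40 mg/kg) at an unadjusted p under 0.05, against 20.8% and 22.9% of all genes.

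Among the other SLC4 and SLC26 transporters, 13 of 15 were tested and 0 were called by the quasi-likelihood test in DN over normal, with 2 at an unadjusted p under 0.05, against 36.9% of all genes, and a median log2 fold change of -0.07. These 2 were Slc26a2, a sulfate transporter (-0.74, adjusted p = 0.0652 by edgeR), and Slc4a2, an anion exchanger of many tissues (0.37, adjusted p = 0.0898).

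Of 12 other carbonic anhydrases, 8 were tested and 1 fell in DN over normal, against 10.8% of all genes, with a median log2 fold change of 0.09. This was Car5b, the mitochondrial form, at 196.5, 183, 187 and 170.1 CPM in the normal rats and 95.9, 93.0, 102 and 131 CPM in the DN rats. The groups did not overlap (log2 fold change -0.80, SE 0.123, adjusted p = 0.00574 by edgeR, 0.0162 without DN rat 3), and Car5b also fell in SIN (20 mg/kg) over normal by 0.85 on the log2 scale (adjusted p = 0.00548 by edgeR) and in SIN (40 mg/kg) over normal by 0.84 (adjusted p = 0.00113). Car5b ranged from 83.5 to 128 CPM in the 8 SIN rats, below every normal rat. In SIN (20 mg/kg) over normal 2 of the 8 rose and 2 fell, where 2.77% of all genes rose and 3.58% fell. Besides Car5b these were Car13 (log2 fold change 1.46, adjusted p = 0.0418 by edgeR), Car14 (0.71, adjusted p = 0.0125) and Car6 (-0.83, adjusted p = 0.0292), named after their values were seen. In SIN (40 mg/kg) over normal 1 rose and 2 fell, where 2.28% of all genes rose and 3.69% fell, and besides Car5b these were Car14 (0.82, adjusted p = 0.0217 by edgeR) and Car6 (-0.97, adjusted p = 0.0279). Car13, a cytosolic form, averaged 0.724 CPM in the normal rats and 2.00 CPM in SIN (20 mg/kg), while Car14, a membrane form, averaged 59.1 CPM in normal, 97.1 CPM in SIN (20 mg/kg) and 104 CPM in SIN (40 mg/kg).

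Of 8 genes of ammonia generation and transport, 3 rose in DN over normal and none fell, where 8.74% of all genes rose and 10.8% fell, with a median log2 fold change of 0.07. Slc38a3, the glutamine transporter that feeds ammonia formation, rose by 0.72 on the log2 scale (adjusted p = 0.0259 by edgeR), and the aspartate aminotransferases Got1 and Got2 rose by 0.63 (adjusted p = 0.0409) and 0.50 (adjusted p = 0.0203). All 3 calls were kept without DN rat 3 (adjusted p from 0.0220 to 0.0317 by edgeR). Of 5 genes of acid-base sensing 4 were tested and 0 passed the quasi-likelihood test, with 1 at an unadjusted p under 0.05, against 36.9% of all genes, and a median log2 fold change of 0.35. The smallest p there belonged to Ptk2b, a tyrosine kinase (0.31, adjusted p = 0.0988 by edgeR), and then to Gpr4, a proton-sensing receptor (0.38, adjusted p = 0.277). In SIN over DN no gene of these 6 lists passed the quasi-likelihood test at either dose. For SIN (20 mg/kg), those at an unadjusted p under 0.05 were 3 of 12 intercalated cell and 6 of 20 V-ATPase genes. There were also 2 of 13 SLC4 and SLC26 genes, 0 of 8 carbonic anhydrases, 2 of 8 ammonia and 0 of 4 sensing genes. Over all genes the share was 15.4%. For SIN (40 mg/kg) the counts in this order were 2, 4, 1, 1, 2 and 0, against 17.1% of all genes.

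**Figure D3:**
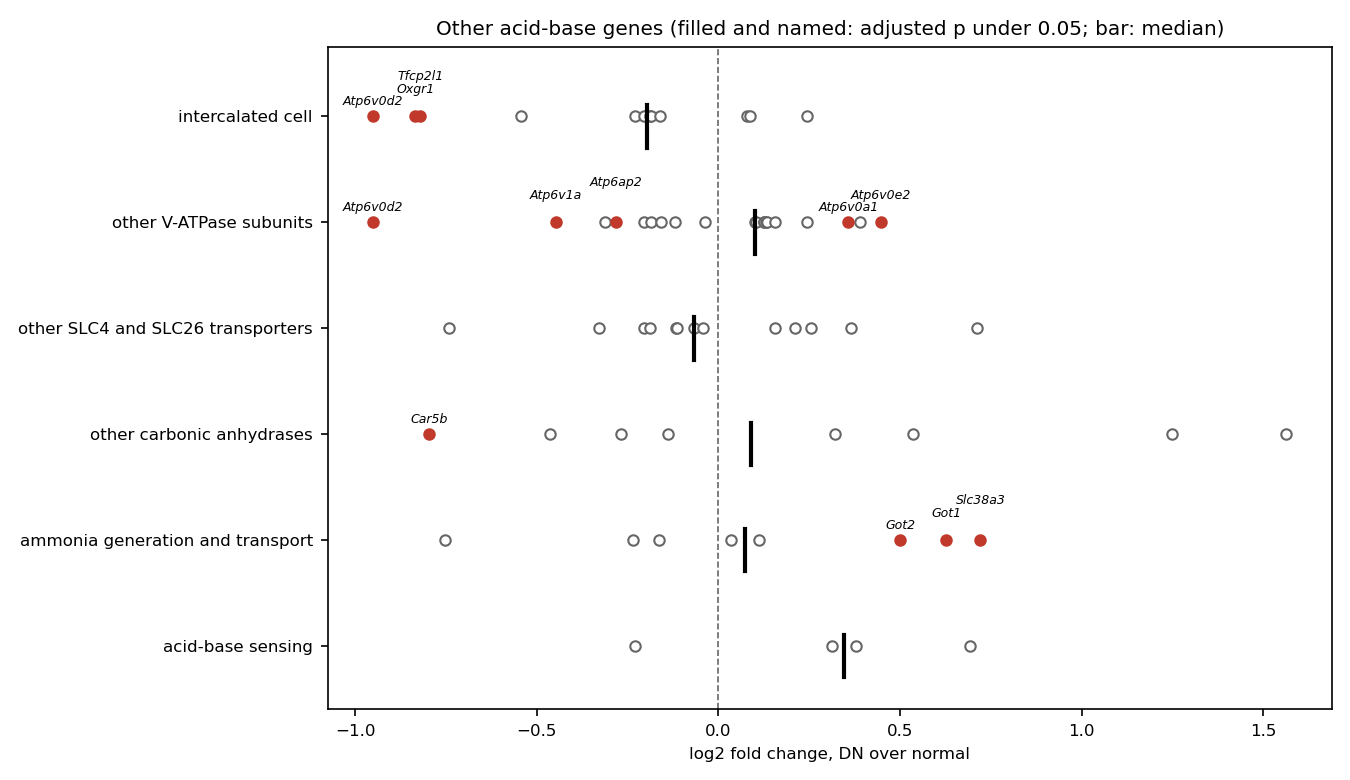
Log2 fold change in DN over normal (x axis) of the tested genes of 6 lists (y axis), with 1 point per gene, filled and named where edgeR's quasi-likelihood test gave an adjusted p under 0.05, and a bar at the list's median. The 3 filled intercalated cell genes lie left of 0 and the 3 filled ammonia genes lie right of 0, while filled V-ATPase genes lie on both sides.

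Among rats of the same group, some of the 10 genes varied together. Taken as deviations from group means in log2 CPM over the 16 rats, Slc26a4 and Atp6v0a4 had a Pearson correlation of 0.87, Slc26a4 and Car12 of 0.78, and Atp6v0a4 and Car12 of 0.76. Slc26a4 and Atp6v1b1, which both differed from normal in the same groups, had 0.78 over all rats but 0.36 within groups. These values share libraries and their scaling and carry no test.

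The same genes varied with the summed markers of tubule segments within groups. Slc26a4 had a correlation of -0.88 with the thick ascending limb sum, 0.85 with the podocyte sum, 0.82 with the distal convoluted tubule sum and 0.75 with the proximal tubule sum. Atp6v0a4 and Car12 had -0.86 and -0.87 with the thick ascending limb sum. Between groups, the thick ascending limb sum was 3654 to 4840 CPM in normal and 2087 to 3773 CPM in DN. Most of that sum was Umod, with a mean of 3286 CPM in normal and 1924 CPM in DN. The means of Slc12a1 (755.5 and 672.7 CPM) and Cldn16 (37.96 and 25.58 CPM) were also lower in DN. That of Kcnj1 was higher in DN (325.6 and 360.1 CPM). The podocyte sum was 436 to 580 CPM in normal and 304 to 545 CPM in DN. The sum of 6 principal cell markers of the collecting duct was 533.5 to 1141 CPM in normal, 933.5 to 2040 CPM in DN, 1075 to 1797 CPM in SIN (20 mg/kg) and 1213 to 2037 CPM in SIN (40 mg/kg), so that its mean was lowest in normal. From normal to DN the mean rose in Aqp2 (354.8 to 829.3 CPM), Aqp3 (169.6 to 312.4 CPM) and Avpr2 (23.06 to 46.4 CPM). It moved less in Scnn1b (40 to 49.9 CPM), Hsd11b2 (202.8 to 224.4 CPM) and Scnn1g (38.25 to 38.54 CPM). Over the 16 rats the principal cell sum had a correlation of -0.72 with Slc26a4 and -0.67 with Atp6v1b1, and within groups -0.45 and -0.18. Slc4a4 had -0.71 with it within groups. The part of principal cells in these results was not tested. The part of the sampled kidney region in these results was not tested. Slc4a1 had -0.03 with the red blood cell sum and 0.72 with the endothelial sum, and Car2 had 0.50 with the red blood cell sum.

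**Figure D4:**
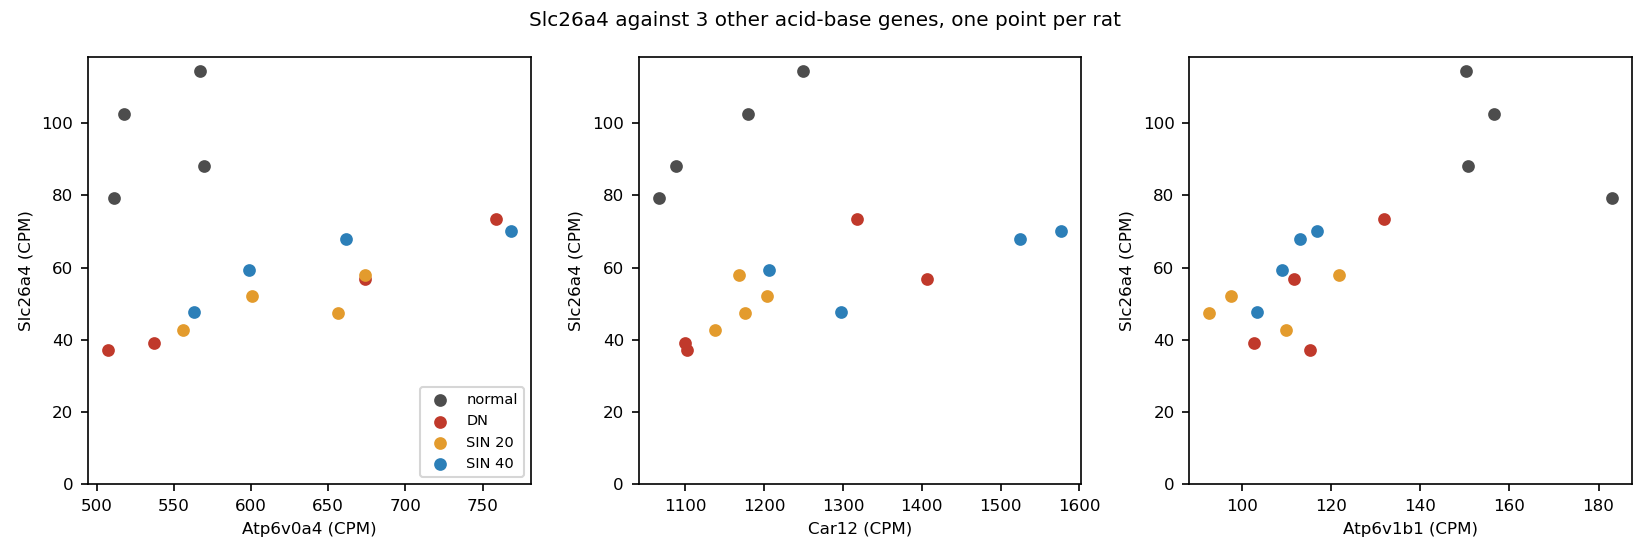
Slc26a4 in CPM (y axis) against Atp6v0a4, Car12 and Atp6v1b1 in CPM (x axes, not from 0), with 1 point per rat coloured by group. Within groups Slc26a4 went with Atp6v0a4 (0.87) and Car12 (0.78) while the normal rats lay above the others, and against Atp6v1b1 the normal rats form a separate cloud at the upper right.

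The genes most like each of the 10 were those with the highest Pearson correlation of log2 CPM over the 16 rats, among 16420 genes. For Slc26a4 these were Hmx2 (0.94), an intercalated cell marker of the list above, Pip5k1b (0.92) and Tlr12 (0.92). For Slc4a4 they were Pikfyve (0.96), Mtss1 (0.93) and Nbr1 (0.93), and for Atp6v1b1 they were Klhl8 (0.92), Cndp1 (0.91) and Ahcyl2 (0.91). For Car4 they were Cry2 (0.92) and Dbp (0.91), both known from the circadian clock, and Gpt2 (0.90). For Car15 the closest was Wdr45 (0.82) and for Atp12a it was AABR07060862.1 (0.91). For Atp6v0a4 it was Nudt16l1 (0.91), for Slc4a1 Mtcl1 (0.83), for Car2 Cab39l (0.86) and for Car12 Zfp496 (0.86). By Spearman correlation the closest 3 no longer held Cry2 for Car4, Mtss1 for Slc4a4 or any of the 3 for Atp6v1b1. The single genes named for Atp12a, Atp6v0a4, Slc4a1, Car2 and Car12 also dropped out, while that for Car15 stayed. These correlations span the group differences and carry no test.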

How the data were processed

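RNA of 16 rat kidneys was sequenced by the authors on an Illumina platform after oligo(dT) enrichment, trimmed with SeqPrep and Sickle and aligned with TopHat to Rnor_6.0. The submitters' processing notes also name Bowtie, RSEM and edgeR. The authors deposited a table of estimated counts (expected counts, 86.2% of values whole) before normalization, which were rounded here. Of its columns, 4 that match no sample record and the group means were not used. Strand was not stated to be kept, so a gene and its antisense partner cannot be told apart, and fractional counts of Atp6v1b1, Atp6v0a4, Car12 and Car15 show reads shared with other genes.

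Each of 6 pairs of groups was fitted alone (edgeR 4.0.16 quasi-likelihood test, TMM, filterByExpr, 2-sided, Benjamini-Hochberg over all genes of the fit) in R 4.3.3. CPM used TMM factors over 16 rats, log2 CPM a prior count of 2, and TPM the deposited gene length. Intervals are 95% confidence intervals of the log2 fold change and reflect the spread between rats only. The SE was the size of the log2 fold change divided by the square root of the test's F statistic. The steps were tested on simulated data of DN over normal in which 200 genes changed 4-fold. Of the changed genes 189 were tested and the quasi-likelihood test called 172, along with 8 unchanged genes. Smaller changes, such as those of the 4 genes called in DN over normal, were not simulated.

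Named genes are the 10 genes, up to 4 called genes per list in DN over normal (or 2 by p), and the 3 genes most like each of the 10. Of the last, only the closest is given for 6 genes. Hmx2 and Foxi1 are given beyond that rule, chosen after their values were seen. The genes and lists were chosen with earlier results of these data known, and Car4 and Car12 were added after the names in the table were seen. The alternatives were DESeq2 1.42.0, edgeR's exact test, RLE, no filter, at least 10 counts in every rat, one fit over all 16 rats, a block for the replicate number, a log2 fold change of at least 1, each rat left out, and for likeness Spearman correlation or another prior count. One further list of genes is not reported here. Promoters came from RefSeq, without Slc4a1 and Car2.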

Additional observations from a re-analysis of the deposited data

Results flagged for a closer look

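In 40 groups of 4 rats (10 genes in 4 groups), 2 had a rat whose gap to the others was larger than Dixon's 95% limit for 4 values, and chance alone gives about 2. Atp12a in SIN (40 mg/kg) rat 1 was at 5.70 CPM, while the other 3 rats of the group were at 1.12 to 1.36 CPM. Car15 in normal rat 2 was at 22.3 CPM, while the other 3 normal rats were at 11.98 to 12.5 CPM.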

How the results depend on the processing

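Of 252 values under other settings with all rats, 233 kept direction and side of the threshold, 7 lost the call, 11 gained it and 1 changed sign: Car2 in DN over normal, -0.005 with at least 10 counts in every rat. Of 288 with 1 rat left out, 244 kept both, 34 lost the call, 2 gained it and 8 changed sign.

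The count of called genes in DN over normal moved from 4 to 0 where a log2 fold change of 1 or more was required, and to between 0 and 3 without 1 rat (0 without normal rat 4, 1 without normal rat 1, normal rat 3 or DN rat 2, 2 without DN rat 1 or 4). Without normal rat 4 the genes called over the whole table went from 3074 to 769. RLE kept 4, against 19.4% of all genes, with Slc4a4 lost (adjusted p = 0.0503 by edgeR) and Car4 gained. For 20 mg/kg over DN, 0 genes became 1 by DESeq2 (1.4% of all genes) and 1 by the exact test (0.566%). For 40 mg/kg over DN, 0 became 4 by DESeq2 (2.73%) and 1 by the exact test (1.04%). Both counts stayed at 0 without 1 rat. In SIN over normal, 4 became 1 at both doses under the fold change limit. The share of all genes there was 2.48% for 20 mg/kg and 2.47% for 40 mg/kg. Without 1 rat, 4 became 3 to 4 for 20 mg/kg, where 3.42% to 7.66% of all genes were called. For 40 mg/kg over normal, Atp6v1b1 and Car4 kept the call in 8 of 8 fits without 1 rat. Atp12a kept it in 6 and Slc26a4 in 3. With all 16 rats in one fit, Atp12a in SIN (20 mg/kg) (adjusted p = 0.107 by edgeR) and Slc26a4 in SIN (40 mg/kg) (0.0587) lost the call over normal. SIN (40 mg/kg) over SIN (20 mg/kg) stayed at 0 throughout. The causes were not tested.

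Values that changed sign without 1 rat were Car2 in DN over normal (-0.087 to 0.045), Slc26a4 in SIN (20 mg/kg) over DN (-0.18 to 0.17), Atp6v1b1 in SIN (40 mg/kg) over DN (-0.114 to 0.008), Car15 in SIN (20 mg/kg) over normal (-0.34 to 0.04) and Slc4a4 in SIN (40 mg/kg) over normal (-0.04 to 0.23), none of them called. With the replicate number as a block, 0 of the 10 genes were called in DN over normal, against 8.4% of all genes. Among the 4 genes called without the block, the adjusted p ran from 0.0576 for Atp6v1b1 to 0.0782 for Slc4a4 by edgeR. The counts of the other comparisons stayed as they were. The labels give rats a number only, and correlations of same-numbered rats were -0.238 to 0.244, with 3 of 16 rats closest to their own number. Every most similar gene was kept with the other prior count, and with Spearman correlation 11 of the 30 stayed among the closest while 19 did not. Depth limits Atp12a most, with 24 counts in its lowest rat.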
